A study of Mus musculus with 10 samples.

Results

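The genes described here are the T cell coreceptors Cd4, Cd8a and Cd8b1, the lineage factors Zbtb7b and Runx3, and Crtam, a surface molecule of activated CD8 T cells. They were taken from a fixed list of 6 symbols, and 6 of 6 were found among the 19048 genes measured in both deposited tables. Each was bright enough to be among the 12485 genes tested. The arrays (Affymetrix) read RNA of splenic CD3+ T cells, taken from Balb/C males that were 12 weeks old. KLF13 KO mice (KO1 to KO5) were compared with WT mice (WT1 to WT5), which the labels number as separate mice. Both groups had been activated in culture for 4 days on a plate coated with antibody to CD3, with antibody to CD28 in solution. KLF13 is a zinc-finger transcription factor. The labels do not say how its gene was disrupted or in which cells.

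T cells that recognise antigen on MHC class II carry CD4, and those that recognise it on MHC class I carry CD8, in most cases as a pair of an alpha chain (Cd8a) and a beta chain (Cd8b1). Both coreceptors bring the kinase LCK to the T cell receptor. In the thymus Zbtb7b, known as ThPOK, maintains the CD4 fate and helper genes, while Runx3 silences Cd4 and sustains Cd8 expression and the cytotoxic programme. Crtam is an adhesion receptor for CADM1 that appears early after activation on CD8 T cells and on a cytotoxic subset of CD4 T cells. After stimulation with antibodies the proportion of CD4 and CD8 cells in a culture can shift, so the coreceptor transcripts are commonly read together. In RNA from a whole culture, fewer cells of a type and less RNA per cell cannot be told apart.

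In the GRCm38.p6 assembly Cd8a and Cd8b1 are neighbours on chromosome 6, at 71373427 to 71379171 and 71322788 to 71337492, and Cd4 lies on the same chromosome at 124864693 to 124888247. Zbtb7b is on chromosome 3 (89377644 to 89393673), Runx3 on chromosome 4 (135120645 to 135177990) and Crtam on chromosome 9 (40972798 to 41004628). RefSeq promoter sequences of that build were matched for 3 of the 6 genes, Cd8a, Zbtb7b and Runx3, and not for Cd4, Cd8b1 and Crtam. The 250 bases before the gene start, for Runx3 the more upstream of 2 windows given, are shown for Runx3 (chr4:135120395-135120644, plus strand) and Cd8a (chr6:71373177-71373426, plus strand), since Runx3 is the factor that acts on the coreceptor genes and Cd8a one of the genes it acts on. Capitals mark the RUNX core motif, searched as ACCACA and its complement TGTGGT on both strands.
Runx3: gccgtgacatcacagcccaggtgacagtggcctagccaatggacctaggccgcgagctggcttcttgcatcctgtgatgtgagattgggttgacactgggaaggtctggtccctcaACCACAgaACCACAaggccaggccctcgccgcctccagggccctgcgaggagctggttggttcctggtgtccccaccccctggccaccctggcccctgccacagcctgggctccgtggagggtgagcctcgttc
Cd8a: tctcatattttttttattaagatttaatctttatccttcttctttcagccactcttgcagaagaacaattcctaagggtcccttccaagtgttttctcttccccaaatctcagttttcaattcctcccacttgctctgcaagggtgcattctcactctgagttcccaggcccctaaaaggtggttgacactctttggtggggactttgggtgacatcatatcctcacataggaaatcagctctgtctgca
The Runx3 window held 2 such motifs, starting 134 and 126 bases before the gene start, and the Cd8a window held 0. The second Runx3 window, further into the gene, held 0. Of the 2 windows of Zbtb7b, 1 held a single motif. Of 32851 promoter windows of the same length, 14.0% held at least 1. Letters typical of KLF and SP factors were also counted on both strands. CACCC (complement GGGTG) occurred 3 times in the Runx3 window shown and 2 times in the Cd8a window, and at least once in 52.0% of all windows. GGGCGG (complement CCGCCC) occurred 0 times in both of these, and at least once in 32.7% of all windows. The second Runx3 window held GGGCGG or its complement 3 times, and CACCC or its complement 1 time. In the 2 Zbtb7b windows the GGGCGG counts were 2 and 1, and the CACCC counts 4 and 2. No motif overlapped another in the windows shown. These matches describe letters only. The coreceptor genes are also controlled by enhancers and a silencer outside these windows.

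Replicates 1 to 3 were deposited as an exon-level table and replicates 4 and 5 as a gene-level one, all as log2 signals. The 6 exon-level column medians lay on 2 scales (5.23 in KO1 and 5.21 in WT1, against 6.25 to 6.43 in the other 4 arrays), so arrays were compared within replicate 1, within replicates 2 and 3, and within replicates 4 and 5. KO3 stood apart, with a correlation of 0.796 to 0.848 with the other exon-level arrays over all probe sets, against 0.874 to 0.976 among those 5 arrays. Klf13 itself read 5.41, 6.16, 6.07, 6.21 and 6.46 in KO1 to KO5, against 6.03, 6.95, 6.89, 7.21 and 7.54 in WT1 to WT5, below the WT arrays of its set in 5 of 5 KO arrays (-0.86 ± 0.12, limma, SE, adjusted p = 0.0126). Of all tested genes, 10.8% had every KO array below every WT array in each of the 3 sets. Whether the Klf13 probes lie in the disrupted part of the gene is not known here. CD3 chains and other T cell markers lay between the 89.8 and 99.9 percentiles of exon-level brightness, while 5 of 5 NK cell markers were below the 30th percentile of both tables. Of the other markers, 2 of 6 for B cells, 2 of 6 for myeloid cells and 3 of 6 for dendritic cells reached that percentile in both tables. So did 2 of 5 gamma delta and NKT cell markers.

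The comparison of KO with WT arrays over both tables asked whether the coreceptor genes differ in T cells without KLF13. Of the 6 genes, 0 passed the threshold there (limma with the 3 sets as block, Benjamini-Hochberg adjusted p under 0.05 over all 12485 genes; 0.585% of all genes were called, 0.0961% as higher in KO and 0.489% as lower). The estimates ran from -0.27 for Cd4 to 0.32 for Crtam on the log2 scale. An unadjusted p under 0.05 was found for 14.9% of all genes and 0 of the 6. With the table in place of the sets as block the shares were 0.032% called and 1.46% at an unadjusted p under 0.05, and 0 of the 6 were among them. The spread in that fit holds the gap between the 2 exon-level scales, and its SE was 0.35 for each of the 6 genes. In the exon-level table the call reached 0% of all genes and 0 of the 6, with 8.16% and 0 of the 6 at an unadjusted p under 0.05. Among the gene-level arrays 1 of the 6, Crtam, was called as higher in KO, where 2.72% of all genes were called, 0.721% as higher and 1.99% as lower. There 16% of all genes had an unadjusted p under 0.05, and 2 of the 6 did, Cd8a and Crtam. On simulated data the fit over both tables recovered 38% of changes of 0.5 log2 units and 92% of changes of 1, and the gene-level fit 4% and 50%, so most true changes of the size estimated for these genes would go uncalled.

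**Figure D1:**
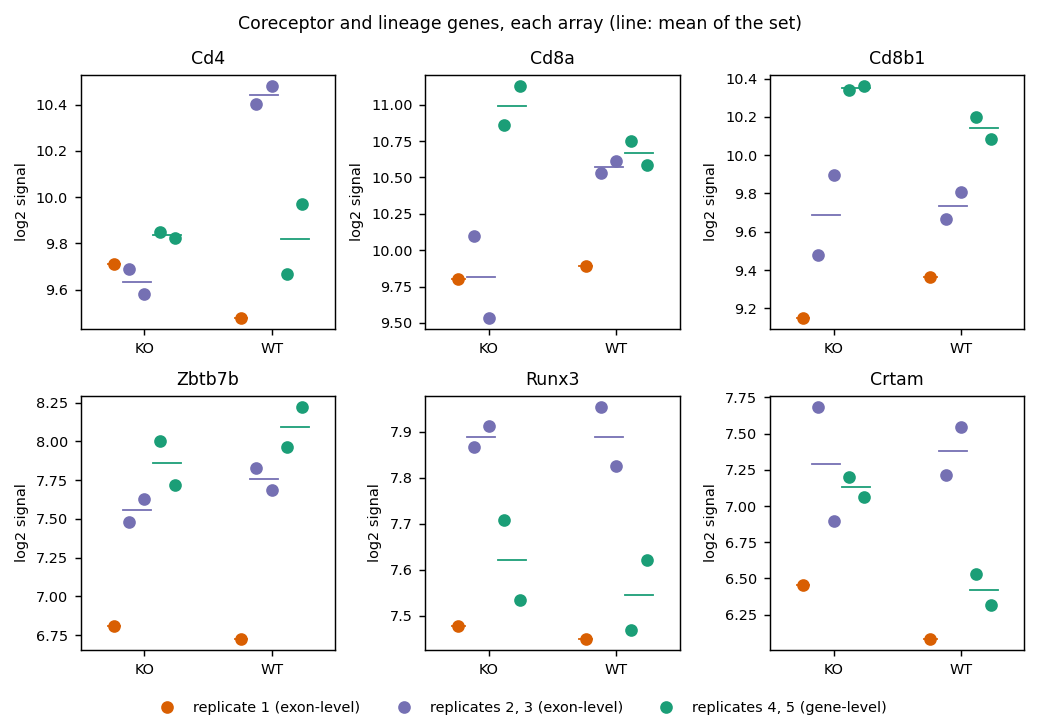
Log2 signal of the 6 genes (y axis, separate scale per panel) in each KO and WT array (x axis), coloured by set, with a line at the mean of each genotype within a set. Cd4 is at 9.69 and 9.58 in KO2 and KO3, under 10.40 and 10.48 in WT2 and WT3, while Crtam is at 7.20 and 7.06 in KO4 and KO5, above 6.53 and 6.31 in WT4 and WT5.

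Cd4 lay lower in both KO arrays than in both WT arrays in replicates 2 and 3, and passed no test. It read 9.69 in KO2 and 9.58 in KO3, against 10.40 in WT2 and 10.48 in WT3. In replicate 1 it read 9.71 in KO1 and 9.48 in WT1, an order that 46.5% of all genes had, while 53.5% were lower in KO1. It read 9.85 in KO4 and 9.82 in KO5, against 9.67 in WT4 and 9.97 in WT5. The groups were apart in replicates 2 and 3, where both KO arrays were below both WT arrays, and the gene-level values of KO lay between those of WT. The differences in the 3 sets were 0.23, -0.81 and 0.01, which gave -0.27 ± 0.17 overall (limma, SE, 5 arrays against 5, adjusted p = 0.438; 95% interval -0.64 to 0.10). The value of replicates 2 and 3 stands among many like it: both KO arrays were below both WT arrays for 43.1% of all tested genes there, and for 88.8% of the 1249 brightest, to which Cd4, Cd8a and Cd8b1 belong. The median difference of these bright genes in that set was -0.67. After quantile normalization within each table Cd4 was at -0.47 in that set, and the median of all genes there was at -0.06 in place of -0.22.

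The Cd4 value of replicate 1 rested on a single probe set. Of the 11 exon-level probe sets of Cd4, the one numbered 10547896 read 15.43 in KO1, against 10.13 and 10.04 in KO2 and KO3 and 9.54, 10.60 and 10.57 in WT1, WT2 and WT3. Of the 11 probe sets 8 were lower in KO1 than in WT1, with a median difference of -0.28. Without that probe set, an omission chosen after its value was seen, Cd4 read 9.14 in KO1 and 9.47 in WT1. The difference of replicate 1 was then -0.34 in place of 0.23, and that over both tables -0.40 (adjusted p = 0.285). With the median of probe sets it was -0.39 in replicate 1.

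In replicates 2 and 3 the Cd4 probe sets moved together. All 11 were lower in KO2 than in both WT arrays, and all 11 were lower in KO3. Their median difference was -0.55, beside -0.67 for the 1249 brightest genes, of which 88.8% had both KO arrays below both WT arrays. The share of all probe sets with this order was not counted. Of the Cd4 probe sets 10547898, the brightest in WT, differed most, at 11.31 in KO2 and 12.25 in KO3, against 14.08 in WT2 and 14.22 in WT3. It also read 11.11 in KO1 and 12.44 in WT1, and its estimate over the table was -2.02 ± 0.40 (limma, SE, 3 arrays against 3, adjusted p = 0.743 over 169103 probe sets). The other 10 probe sets differed by -0.32 to -1.17 in replicates 2 and 3. No probe set of any of the 6 genes passed the threshold (0% of all probe sets were called; at an unadjusted p under 0.05 the share was 4.67%, and the Cd4 set had 2 and the Cd8a set 1). On simulated data this test of probe sets recovered 0% of changes at each size tried, so these counts say little.

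**Figure D2:**
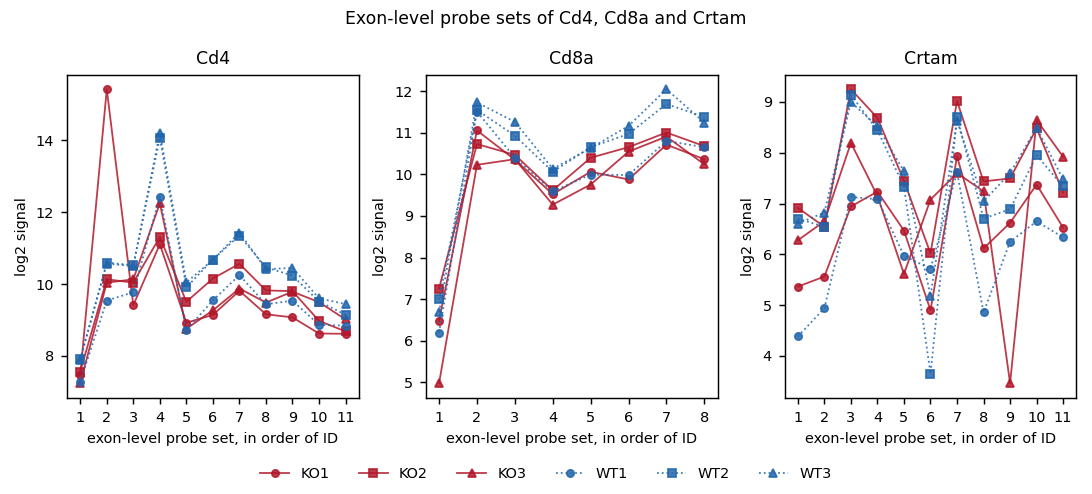
Log2 signal (y axis) of the exon-level probe sets of Cd4, Cd8a and Crtam in order of their ID (x axis), with KO arrays in red, solid, and WT arrays in blue, dotted. KO1 reads 15.43 at the second Cd4 probe set, and in Crtam the line of KO3 departs from the shape shared by the other arrays, down to 3.46 at the ninth probe set.

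Cd8a, the alpha chain, lay lower in KO in the exon-level arrays and higher in the gene-level arrays, and passed no test. It read 9.80 in KO1 and 9.89 in WT1. In replicates 2 and 3 it read 10.10 in KO2 and 9.54 in KO3, against 10.53 in WT2 and 10.61 in WT3. It read 10.86 in KO4 and 11.13 in KO5, against 10.75 in WT4 and 10.58 in WT5. Both KO arrays were thus below both WT arrays in replicates 2 and 3, and above both in replicates 4 and 5, an order that 20.3% of all tested genes had there, while 26% had every KO array below every WT array. The exon-level difference was -0.53 ± 0.24 (limma, SE, 3 against 3, adjusted p = 0.582) and the gene-level difference 0.33 ± 0.14 (2 against 2, adjusted p = 0.298). Over both tables it was -0.19 ± 0.19 (5 against 5, adjusted p = 0.597; 95% interval -0.61 to 0.24), and -0.015 without KO3. The gene-level difference was 0.19 without KO5 (adjusted p = 0.796). The exon-level difference was -0.26 with quantile normalization, where replicate 1 turned to 0.02, and -0.31 without KO3.

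The table by genotype term, which tests whether the KO difference itself differed between the tables, was 0.86 ± 0.32 for Cd8a (limma, SE, unadjusted p = 0.0222, adjusted p = 0.872). It was the only one of the 6 genes with an unadjusted p under 0.05 in that test, in which 0 of all genes were called and 5.27% had such a p. All 8 probe sets of Cd8a had a lower mean in KO2 and KO3 than in WT2 and WT3, with log2 differences of -1.16 to -0.47. Their median there was -0.70, beside -0.67 for the 1249 brightest genes. In replicate 1 the same 8 differed by -0.45 to 0.28.

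Cd8b1, the beta chain, differed less. It read 9.15 in KO1 and 9.37 in WT1. In replicates 2 and 3 it read 9.48 in KO2 and 9.90 in KO3, against 9.67 in WT2 and 9.81 in WT3, with the groups overlapping. It read 10.34 in KO4 and 10.36 in KO5, against 10.20 in WT4 and 10.09 in WT5, so both chains of CD8 were higher in KO there. The gene-level difference was 0.21 ± 0.12 (limma, SE, 2 against 2, adjusted p = 0.471) and that over both tables was 0.02 ± 0.13 (5 against 5, adjusted p = 0.932; 95% interval -0.26 to 0.29). Among the exon-level arrays the means of the chains did not move alike: in replicates 2 and 3 the difference was -0.75 for Cd8a and -0.05 for Cd8b1, although most cells carry them as a pair. Quantile normalization within each table moved Cd8b1 to 0.31 in replicates 2 and 3 and to 0.20 over both tables (adjusted p = 0.553), or 0.24 with the median of probe sets added (adjusted p = 0.567). That mean of Cd8b1 on the deposited values holds probe sets that went both ways. Of the 11 probe sets of Cd8b1 5 had a lower mean in KO2 and KO3, and their log2 differences ran from -1.50 to 1.48. The highest was that of 10538982, a dim one, at 6.68 in KO2 and 7.50 in KO3, against 5.34 in WT2 and 5.87 in WT3. The brightest, 10538984, read 11.67 in KO2 and 14.17 in KO3, against 14.38 in WT2 and 14.45 in WT3.

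Crtam was higher in KO in 4 of 5 arrays against the WT arrays of their set. It read 6.46 in KO1 and 6.08 in WT1. In replicates 2 and 3 it read 7.68 in KO2 and 6.89 in KO3, against 7.22 in WT2 and 7.54 in WT3. It read 7.20 in KO4 and 7.06 in KO5, against 6.53 in WT4 and 6.31 in WT5. In replicate 1, with 1 array per genotype, KO1 was above WT1, an order that 46.5% of all tested genes had. In replicates 4 and 5 both KO arrays were above both WT arrays, as for 20.3% of all tested genes. In replicates 2 and 3 KO2 was above and KO3 below both WT arrays. Among the gene-level arrays Crtam rose 1.64-fold (log2 difference 0.71 ± 0.13, limma, SE, 2 arrays against 2, adjusted p = 0.0291). That call was lost without WT5 (0.60, adjusted p = 0.0548) and without KO4 (0.64, adjusted p = 0.117), and held under the other 8 alternatives tried on that table.

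Over both tables Crtam differed by 0.32 ± 0.19 (limma, SE, 5 against 5, adjusted p = 0.418; 95% interval -0.09 to 0.73). Without KO3 the difference was 0.51 ± 0.11 (adjusted p = 0.0298), the only setting tried in which any of the 6 genes passed over both tables. The number of genes called among all those tested was 362 without KO3, against 73 with it. The probe sets of Crtam showed how KO3 differs. Over its 11 exon-level probe sets, KO3 correlated with the WT mean of its set at 0.279 and KO2 at 0.935. The SD over probe sets of the difference from that mean was 1.63 in KO3 and 0.48 in KO2. For Cd4 these SDs were 0.58 in KO3 and 0.70 in KO2, and for Runx3 1.25 in KO3 and 0.21 in KO2. Of the 11 probe sets of Crtam, 9 were higher in KO1 than in WT1, and 6 were higher in KO2 than in both WT arrays. In KO3 they went both ways, with 4 above and 6 below both WT arrays.

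**Figure D3:**
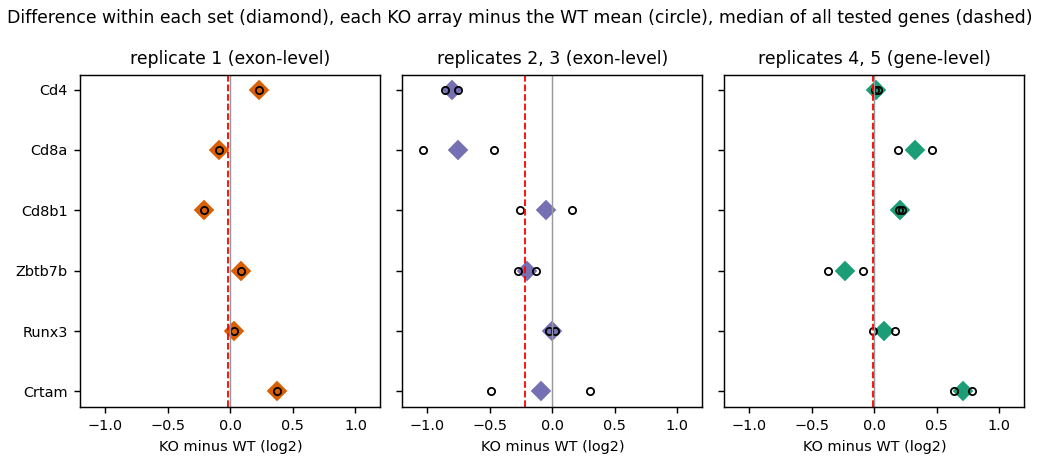
KO minus WT on the log2 scale (x axis) for the 6 genes (y axis) in each of the 3 sets; diamonds are the difference of means, circles each KO array minus the WT mean of its set, and the dashed line the median of all 12485 tested genes. Cd4 (-0.81) and Cd8a (-0.75) lie far below 0 in replicates 2 and 3 alone, and Crtam (0.71) lies highest in replicates 4 and 5. The 1249 brightest genes, to which Cd4 and Cd8a belong, had a median of -0.67 in replicates 2 and 3, which is not drawn.

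The factors of both lineages showed small differences. Zbtb7b, the CD4 lineage factor, read 6.81 in KO1 and 6.73 in WT1. In replicates 2 and 3 it read 7.48 in KO2 and 7.63 in KO3, against 7.83 in WT2 and 7.69 in WT3. It read 8.0 in KO4 and 7.72 in KO5, against 7.96 in WT4 and 8.22 in WT5. Both KO arrays were below both WT arrays in replicates 2 and 3, as for 43.1% of all tested genes, and the groups overlapped in the gene-level table. It differed by -0.16 ± 0.12 over both tables (limma, SE, 5 against 5, adjusted p = 0.493; 95% interval -0.42 to 0.10).

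Runx3, the CD8 lineage factor, showed no difference between genotypes that passed a test. It read 7.48 in KO1 and 7.45 in WT1. It read 7.87 in KO2 and 7.91 in KO3, against 7.95 in WT2 and 7.82 in WT3, and 7.71 in KO4 and 7.53 in KO5, against 7.47 in WT4 and 7.62 in WT5. The groups overlapped in both sets with 2 arrays per genotype. The difference over both tables was 0.04 ± 0.11 (limma, SE, 5 against 5, adjusted p = 0.848), with a 95% interval of -0.20 to 0.27. The probe sets of Runx3 were less even than that mean, as 1 of the 8 shows, chosen after its values were seen: 10509032 read 9.07 in KO3 and 6.62 in KO2, against 6.98 in WT2 and 6.13 in WT3.

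The difference of Cd8a minus Cd4 on each array sets the coreceptors of both lineages side by side. Its absolute size has no meaning, as it sets probes of different genes against each other, so it was only compared between arrays of a set and was given no test. On the deposited values it was 0.09 in KO1 and 0.41 in WT1. It was 0.41 in KO2 and -0.04 in KO3, against 0.12 in WT2 and 0.13 in WT3. It was 1.01 in KO4 and 1.31 in KO5, against 1.08 in WT4 and 0.61 in WT5. KO minus WT was thus -0.32, 0.06 and 0.31 in the 3 sets, or 0.08 ± 0.16 overall (SE from a linear model with the sets as block), with the groups overlapping in both sets that have 2 arrays per genotype.

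The reading for replicate 1 turned with the Cd4 probe set that read 15.43 in KO1. Without it Cd8a minus Cd4 was 0.67 in KO1 and 0.42 in WT1, and the 3 differences were 0.25, 0.09 and 0.31 (0.21 ± 0.14 overall). With the median of probe sets they were 0.40, 0.12 and 0.31 (0.25 ± 0.12 overall), above 0 in each set. In both versions the arrays of the genotypes still overlapped in replicates 2 and 3 and in replicates 4 and 5. With the beta chain in place of the alpha chain, Cd8b1 minus Cd4 gave -0.44, 0.76 and 0.19, and 0.12, 0.79 and 0.19 without that probe set. Runx3 minus Zbtb7b, a pair added after the coreceptor values had been seen, was 0.67 in KO1 and 0.72 in WT1. It was 0.38 and 0.29 in KO2 and KO3, against 0.12 and 0.14 in WT2 and WT3. It was -0.29 and -0.18 in KO4 and KO5, against -0.49 and -0.60 in WT4 and WT5. The KO arrays were above the WT arrays in both of the larger sets, but the share of all gene pairs with this order was not counted. The differences were -0.06, 0.20 and 0.31 in the 3 sets. With the median of probe sets these were 0.24, 0.47 and 0.31, so that replicate 1 changed sign.

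**Figure D4:**
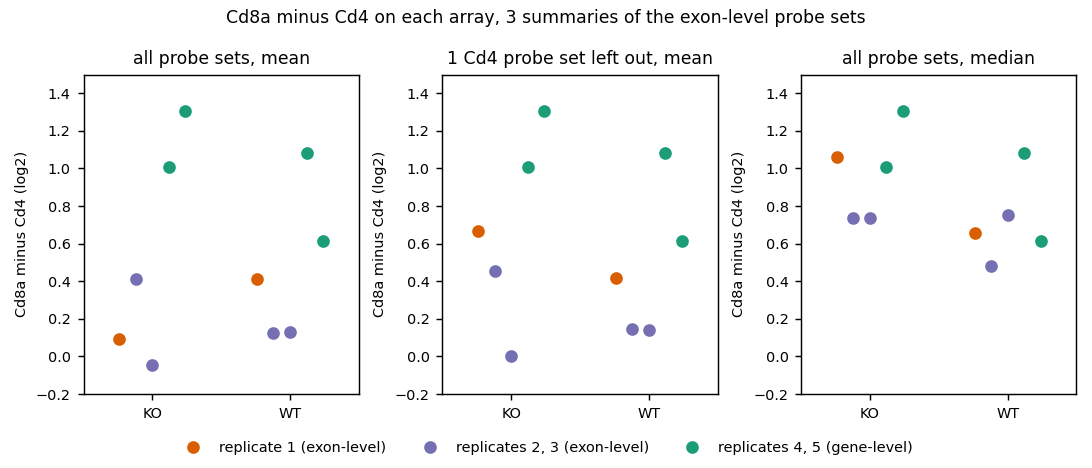
Cd8a minus Cd4 on the log2 scale (y axis) in each KO and WT array (x axis), coloured by set, from the mean of all exon-level probe sets (left), the mean without Cd4 probe set 10547896 (middle) and the median (right). The value of KO1 is 0.09, 0.67 and 1.06 in these 3 versions, while the gene-level arrays do not change.

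Other genes around the coreceptors were read from lists. The lists were chosen with earlier results of these data known, so their counts of called genes only describe them. The fit with the table as block holds the gap between the 2 exon-level scales in its spread. Of 16 further regulators of the CD4 and CD8 fates, 15 were tested and 1 was called over both tables, Gata3, a factor needed for CD4 T cell development and for type 2 helper cells, which fell by 1.17 (limma, adjusted p = 0.00827, but adjusted p = 0.446 with the table as block). Over both tables with the sets as block 0.585% of all genes were called, 0.489% as lower. The median of the 15 was -0.17, beside -0.10 for all genes. Of the 15, 2 were higher in the gene-level table, Tox (1.06, adjusted p = 0.00465), which is needed for CD4 lineage development in the thymus, and Myb (0.56, adjusted p = 0.0465), and 1 was lower, Gata3. Over all genes 0.721% were called as higher in that table and 1.99% as lower. Tox and Myb were chosen after their gene-level values were seen.

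Of the 10 genes of the T cell receptor complex and its partners 9 were tested and 0 were called, with 9 of 9 below 0 and a median of -0.32. In the 3 sets their median was -0.31, -0.78 and 0.05, beside -0.13, -0.67 and -0.07 for the 1249 brightest genes, of which 76.1%, 88.8% and 37% had every KO array below every WT array. The member of smallest p was the CD3 chain Cd3g, at 11.09 in KO2 and 11.28 in KO3, against 12.95 in WT2 and 13.03 in WT3 (-0.89 over both tables, adjusted p = 0.190). Of 8 helper T cell genes 7 were tested and 3 were called as lower with the sets as block, the costimulatory receptor Icos (-0.83, adjusted p = 0.0205), Il4 (-0.89, adjusted p = 0.0470) and Il21 (-1.82, adjusted p = 0.0444). Of these Il21 alone passed with the table as block. Over all genes 0.489% were called as lower with the sets as block. The median of the 7 was -0.83, with 6 of 7 below 0.

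Of 15 cytotoxic T cell genes 14 were tested, with a median of -0.05. Nkg7 (-2.20, adjusted p = 5.94e-05) and Gzmb (-0.71, adjusted p = 0.0470) were called as lower and 0 as higher, and Nkg7 alone passed with the table as block. Over all genes 0.489% were called as lower with the sets as block. In the gene-level table the median of the 14 was -0.03, with 8 of 14 below 0. There 2 of the 14 were called as lower, Nkg7 (-2.51) and Gzmb (-0.74), and 1 as higher, Itgae (0.66, adjusted p = 0.0287; chosen after its value was seen), the integrin chain CD103 found on some CD8 T cells. Of all genes 1.99% were called as lower in that table and 0.721% as higher.

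Cells other than CD4 and CD8 T cells can carry these transcripts, for instance dendritic cells (Cd8a and Cd4) and NK cells (Runx3 and Crtam). Of 6 dendritic cell markers 3 were bright enough to be tested, with a median of 0.04 and 0 called. The mean log2 of all 6 in replicates 2 and 3, where Cd4 and Cd8a lay lower in KO, was 5.24 and 5.61 in KO2 and KO3, against 5.16 and 5.22 in WT2 and WT3. In replicates 4 and 5 it was 3.77 and 3.91 in KO4 and KO5, against 3.811 and 3.801 in WT4 and WT5. The 5 B cell markers found in both tables averaged 5.59 and 5.68 in KO2 and KO3, against 5.53 and 5.51 in WT2 and WT3. They averaged 3.83 and 3.84 in KO4 and KO5, against 3.68 in both WT4 and WT5. Both KO arrays were thus above both WT arrays for the dendritic cell and B cell means in replicates 2 and 3, and for the B cell mean in replicates 4 and 5. Of single tested genes, 11.7% and 20.3% had that order in these 2 sets. No such share was counted for means of several genes or for genes too dim to be tested. The means include genes too dim to be tested. In replicates 4 and 5 Cd79a, 1 of these, differed by 0.71, against -0.05 to 0.10 for the other B cell markers found. KO3 had a narrower spread (interquartile range 3.10) than the other exon-level arrays (3.43 to 3.56). Of the 6 B cell markers 2 were tested and 0 called. Myeloid markers stood at 5.24 and 5.29 in KO2 and KO3, against 5.10 and 4.98 in WT2 and WT3, and at 4.15 and 4.05 in KO4 and KO5, against 3.996 and 4.06 in WT4 and WT5. They too were higher in both KO arrays of replicates 2 and 3, while the groups overlapped in replicates 4 and 5. Of the 6 myeloid markers 2 were tested and 0 called. The 5 NK cell markers stood at 4.03 and 4.44 in KO2 and KO3, against 4.10 and 4.04 in WT2 and WT3, and at 2.45 and 2.63 in KO4 and KO5, against 2.63 and 2.57 in WT4 and WT5, and none was bright enough to be tested. In replicate 1 the means of these 4 lists were 4.11, 4.27, 3.91 and 3.02 in KO1, against 4.09, 4.17, 3.94 and 3.0 in WT1, in the order dendritic, B, myeloid and NK cell markers. Of 5 gamma delta and NKT cell markers 2 were tested and 0 called, and Zbtb16 was at -0.36 (adjusted p = 0.274). The part of these cells in the coreceptor values was not tested.

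The patterns of the 6 genes across arrays were described by correlation after centring each set, over 10 arrays that share these sets and, in replicates 2 and 3, the array-wide shift. The Cd4 values used for this include probe set 10547896, which read 15.43 in KO1. Cd4 and Cd8a correlated at 0.752, Cd8a and Crtam at 0.557, Cd4 and Zbtb7b at 0.532, and Zbtb7b and Crtam at -0.504, while Cd8a and Cd8b1 were at 0.035. The tested genes most like each one by this measure were Gatd1, Galt and Gpx1 for Cd4 (0.977 to 0.982), Ccm2, Ifngr1 and Prkd3 for Cd8a (0.988 to 0.993), and Tcf20, Ankhd1 and Dok3 for Cd8b1 (0.932 to 0.953). They were Wdr25, Ung and Nod2 for Zbtb7b (0.950 to 0.958), Prkar1b, Wipf2 and A530040E14Rik for Runx3 (0.914 to 0.961), and Ipcef1, Agpat2 and Myo9a for Crtam (0.962 to 0.964). Ipcef1 followed Crtam in each set, at 0.43, -0.24 and 0.65, against 0.37, -0.09 and 0.71 for Crtam. None of these 18 genes was called over both tables.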

How the data were processed

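The authors deposited log2 signals that, by the submitters' processing notes, came from RMA. The sources used here name no RMA version. The 2 tables were normalized separately, and the number of arrays limits precision. GEO's platform annotation gave each probe set its gene, with symbols updated through RefSeq (GRCm38.p6), and probe sets without exactly 1 gene were not used. The exon-level value of a gene was the mean over its probe sets, and the gene-level value its brightest probe set (1 for each of the 6). Genes at or above the 30th percentile in both tables were tested with limma 3.58.1 in R 4.3.3 (lmFit and eBayes, 2-sided, Benjamini-Hochberg over all genes). Exon-level arrays whose median lay over 0.5 under the highest formed their own set. The members, lists and design were chosen with earlier results of these data known. Named beyond the 6 genes were list members past the threshold, or else that of smallest p, and the 3 genes most like each member; Tox, Myb and Itgae were added after their gene-level values were seen. Fits were tested on simulated data with independent noise, a best case, with 200 changed genes. P-values of the fits with the sets as block measure the spread between these mice within a set. Where a fit holds more than 1 set, they also take in how the KO difference changes between sets. Replicate 1, with 1 array per genotype, adds nothing to the spread between mice of a genotype. P-values with the table as block also take in the gap between the 2 exon-level scales.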

Additional observations from a re-analysis of the deposited data

Results flagged for a closer look

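Crtam in KO3 lay apart from the other 4 KO arrays after each set was centred on its mean. It stood at -0.44, against 0.19 in the next lowest KO array, and this gap was 0.725 of the range of the 5 KO arrays, above Dixon's 95% critical value of 0.71. Of 16 groups of 5 arrays looked at (the 6 genes, Cd8a minus Cd4 and Cd8b1 minus Cd4, in each genotype) this was the only one past it, and chance flags about 1 group in 20.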

How the results depend on the processing

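Of the 6 genes, 0 were called over both tables under each of the alternatives tried other than the omission of KO3; when single arrays were left out the count ran from 0 to 1 over both tables and in the gene-level table, and was 0 in the exon-level table and for probe sets. The genes called among all tested over both tables, 73, became 4 with the table as block, 31 with the median of exon-level probe sets, 39 with quantile normalization added to it, and 12 to 362 without single arrays. The 339 genes of the gene-level table became 517 with trend and robust eBayes and 194 to 519 without single arrays, and the exon-level count ran from 0 to 426. Replicate numbers mark separate mice, and no pairing by number is stated, though KO1 and WT1 shared a scale. Same-numbered arrays deviated in opposite directions (r = -0.424 in replicates 2 and 3 and -0.241 in replicates 4 and 5). With only 2 arrays per genotype in these sets, this cannot show whether arrays were paired. With the replicate block 0 of the 6 genes, 0 of their probe sets and 23 genes in all were called.

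Several values near 0 changed sign, none of them called. Quantile normalization moved Cd8b1 to 0.18 and Zbtb7b to 0.021 in the exon-level table, and with the median of probe sets Cd8a to 0.035 over both tables. Subtracted medians moved Cd4 to -0.014 in the gene-level table, and the median of probe sets Crtam to -0.017 in the exon-level table. Without single arrays the ranges were -0.034 to 0.10 for Cd8b1 over both tables, -0.12 to 0.33 for Crtam and -0.025 to 0.049 for Runx3 in the exon-level table, and -0.14 to 0.17 for Cd4 and -0.012 to 0.16 for Runx3 in the gene-level table. Cd8a minus Cd4 then ran from -0.02 to 0.18. The cause of these moves was not tested.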
